A study of Homo sapiens with 20 samples.

Results

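L428 is an established cell line of classical Hodgkin lymphoma, a B cell tumour whose cells express few of the genes that mark normal B cells. The L428 experiment comprised the 4 arrays, of 20 in the series, whose titles name L428 cells with the fusion FOXO1(3A)ER. In the first group, 2 arrays held RNA of L428-FOXO1(3A)ER cells kept for 24 h with 4-hydroxytamoxifen (4-OHT). In the second, 2 arrays held RNA of the same cells kept for 24 h with the ethanol vehicle. The protocol text gives 200 µM 4-OHT and says that the experiment was done 2 times, but it names a KLF4 fusion in place of the FOXO1 one, so the dose is given only as labelled. The other 16 arrays repeat the design in KM-H2, L1236, UHO-1 and SUP-HD1, further Hodgkin lymphoma lines with the same fusion, and serve here to show where L428 differed. They also entered the fit, so the spread within their groups is part of the error behind every p-value for L428.

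FOXO1 is a forkhead transcription factor that restrains growth and division, and in lymphocytes it also controls homing receptors, survival genes and B cell development. Signals through PI3K and AKT phosphorylate FOXO1 and remove it from the nucleus, whereas growth factor withdrawal lets it enter and switch on its targets. The 3A mutant lacks the AKT sites, and the fused ligand-binding domain of the oestrogen receptor keeps the protein inactive until 4-OHT binds. Both arms carried the fusion, and no cells without it were treated with 4-OHT among these arrays, so effects of 4-OHT itself and of FOXO1 activity cannot be told apart. No label says whether the stable line was 1 clone or a pool. In such bulk RNA, fewer cells of a type and less RNA per cell cannot be told apart either.

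The labelled cell type was checked against marker genes. All 8 markers of Hodgkin cells chosen for the check, among them TNFRSF8 (CD30), CCL17, IRF4 and TRAF1, had a mean of at least 6 log2 units over the 4 arrays, with a median of 9.77. Of 8 B cell markers with a probe set of their own, 3 reached 6 (PAX5, POU2F2 and SPIB), whereas MS4A1 (CD20) lay at 3.71 and CD22 at 4.72. None of 7 T cell markers and none of 5 myeloid markers reached 6. Of 6 stromal markers, COL1A1 did, at 6.54. Median signals of the 4 arrays lay between 5.667 and 5.712, and the 2 arrays of an arm differed with an SD over genes of 0.168 for 4-OHT and 0.17 for vehicle. The number of arrays limits the precision, and p-values here reflect only how far these arrays differ, which may be technical in part. FOXO1 itself had 9.48 and 9.53 log2 units with 4-OHT and 9.37 and 9.58 with vehicle, a difference of 0.03 ± 0.08 (SE, limma adjusted p = 0.869). Because 4-OHT acts on the protein, and because it is not known whether the probe set reads the fusion, this level is no check of the treatment.

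FOXO proteins bind the core sequence GTAAACA, which reads TGTTTAC on the other strand. These 7 letters were searched on both strands in the RefSeq promoter windows of build GRCh38.p14, which run from 250 bases before to 50 after each transcript start. They stood in 1202 of all 35116 windows (3.42%), which include those of genes not tested here, and in 460 of 17725 windows of tested genes (2.6%). Among windows of genes that rose in L428, 106 of 2431 held them (4.36%), and among those of genes that rose by at least 1 log2 unit, 24 of 337 (7.12%). Among windows of genes that fell, 64 of 3251 held them (1.97%), and among those that fell by at least 1 unit, 2 of 89 (2.25%). Windows were found for 82.2% of the genes that rose, 83.5% of those that fell and 78.1% of the tested genes. The other genes could not be searched, and the difference between these shares was not tested. A match is a description of the letters, not evidence of binding. Most genes named below that had windows held no match in them, among them GCSAM, KIF13A, SESN3 and CBLB. ARRDC3, FOXP1 and EHF also have windows without a match. The stretches below show the match, in capitals, with up to 50 bases on each side, for 4 genes that rose and for EHF, which had the largest fall and holds the same letters. They lie at chr10:44978933-44979039 (minus strand, DEPP1), chr5:91380098-91380176 (minus, ARRDC3), chr2:111120664-111120747 (plus, BCL2L11), chr3:71245214-71245320 (minus, FOXP1) and chr11:34632320-34632426 (plus, EHF).
DEPP1: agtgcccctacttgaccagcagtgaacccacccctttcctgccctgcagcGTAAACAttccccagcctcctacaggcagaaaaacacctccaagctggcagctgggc
ARRDC3: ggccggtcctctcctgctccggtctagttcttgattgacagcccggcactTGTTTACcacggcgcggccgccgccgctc
BCL2L11: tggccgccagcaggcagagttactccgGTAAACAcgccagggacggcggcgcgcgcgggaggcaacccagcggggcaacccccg
FOXP1: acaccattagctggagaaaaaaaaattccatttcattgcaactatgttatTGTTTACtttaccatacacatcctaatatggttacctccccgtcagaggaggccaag
EHF: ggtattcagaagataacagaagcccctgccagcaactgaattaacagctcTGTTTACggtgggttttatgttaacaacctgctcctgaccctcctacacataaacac

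With 4-OHT, 1901 genes were higher (12% of the 15850 tested) and 2772 lower (17.5%), 4673 in all (29.5%), at a limma adjusted p below 0.05. More genes fell than rose, yet the larger changes were mostly rises. A difference of at least 1 log2 unit (2-fold) was reached by 247 genes that rose and 62 that fell, one of at least 2 units by 35 and 1, and one of at least 3 units by 10 and 0. The median difference was 0.448 log2 units among the genes that rose and -0.392 among those that fell, against -0.00619 over all genes. The 2 arms did not overlap in 9522 genes (60.1%), and in 1891 of those that rose and 2768 of those that fell. Both arm means lay below 5 log2 units, near background, for 2710 genes, of which 118 passed.

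ENPP2, which encodes autotaxin, the secreted enzyme that makes lysophosphatidic acid, rose most. It had 9.86 and 10.17 log2 units with 4-OHT, against 5.88 and 5.44 with vehicle, a rise of 4.36 ± 0.133 (20.5-fold, SE, 2 arrays per arm, limma adjusted p = 1.47e-16). FBXO32, the ubiquitin ligase subunit atrogin-1, had 10.44 and 10.33 units with 4-OHT, against 6.42 and 6.55 with vehicle (14.9-fold). In ENPP2 the vehicle arrays lay about at the median signal of the L428 arrays, in FBXO32 above it, and in both genes the 4-OHT arrays lay far above it.

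GCSAM, an adaptor of germinal centre B cells that modulates receptor signalling and motility, had 10.31 and 10.29 units with 4-OHT, against 6.48 and 6.84 with vehicle, a rise of 3.64 ± 0.11. ARRDC3, an arrestin-like adaptor for the ubiquitination of receptors, had 9.84 and 9.78 units, against 6.26 and 6.56 with vehicle (10.5-fold). DEPP1, a regulator of autophagy under stress, had 8.95 and 8.76 units, against 5.58 and 5.77 with vehicle (9.03-fold). The next largest rises were of the kinesin KIF13A (3.48), the acyltransferase PLAAT4 (3.29), the redox protein PRXL2A (3.05), the serotonin receptor HTR2B (3.05) and the stress protein TP53INP1 (3.03). Below 3 units followed ZC3H12B (2.78), ELMOD1 (2.74), SESN3 (2.71), the integrin activator FERMT2 (2.64) and the ubiquitin ligase CBLB (2.61), which dampens antigen receptor signalling. The plot of array values shows these 15 genes and the 15 largest falls, all chosen among genes whose arms did not overlap.

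EHF, an ETS transcription factor best known from epithelia, fell most. It had 6.08 and 7.02 log2 units with 4-OHT, against 8.50 and 8.76 with vehicle, a difference of -2.08 ± 0.213 (adjusted p = 7.36e-08), and its 2 treated arrays were further apart than those of any other of the 15. ENTREP1, an endosomal membrane protein, had 7.02 and 7.19 units with 4-OHT, against 8.95 and 9.18 with vehicle (-1.96 ± 0.125). The drug exporter ABCG2 had 7.11 and 7.28 units, against 8.78 and 8.76 with vehicle (-1.58 ± 0.11).

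The cytokine IL13, an autocrine growth factor of Hodgkin cells, had 4.94 and 5.38 units with 4-OHT, against 6.73 in both vehicle arrays, so that it ended near background. TNFRSF8, the Hodgkin cell antigen CD30, had 8.51 and 8.59 units, against 10.01 and 9.98 with vehicle (-1.45 ± 0.0911). IRF8, a transcription factor of germinal centre B cells and myeloid cells, had 8.22 and 7.99 units, against 9.35 and 9.47 with vehicle. The integrin chain ITGAL (-1.49), the cytokine receptor chain IL2RB (-1.34) and the exocytosis protein SYTL3 (-1.31) also fell. The fatty acid ligase SLC27A2 (-1.57), PHACTR3 (-1.56), the receptor kinase EPHB1 (-1.54), FRG2C (-1.49), the histone H3C12 (-1.31) and the transglutaminase TGM5 (-1.31) completed the 15. FRG2C and H3C12 belong to families of near-identical copies, whose signals the array may not separate.

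**Figure D1:**
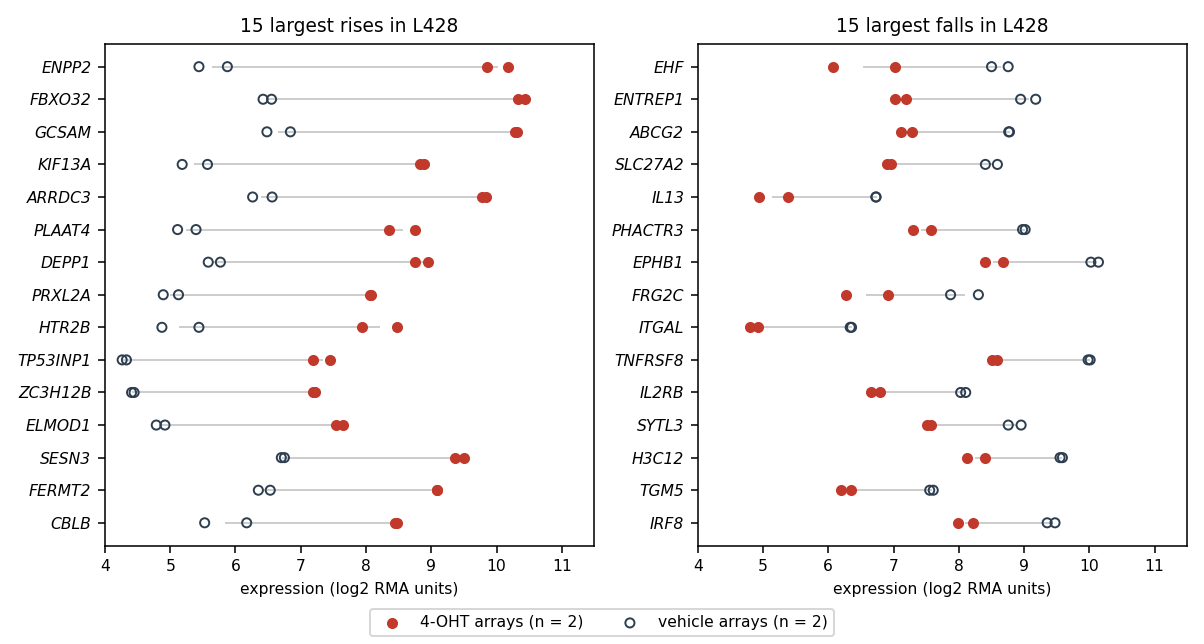
Expression (log2 RMA units) in each L428 array for the 15 largest rises (left) and 15 largest falls (right), with filled points for the 2 4-OHT arrays and open points for the 2 vehicle arrays. The genes were chosen among those whose arms did not overlap, and ENPP2 lies at 9.86 and 10.17 with 4-OHT against 5.88 and 5.44 with vehicle.

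Genes listed as induced by FOXO proteins rose in part, and the list was chosen with earlier results of these data known. Of 35 tested members of this list, 22 rose and 0 fell, while 12% of all genes rose and 17.5% fell, and the median difference was 0.571 log2 units. Beside FBXO32 and DEPP1, the sestrins SESN3 and SESN1, which restrain mTORC1 under stress, rose by 2.71 ± 0.0777 and 1.61 ± 0.0981. SESN3 had 9.50 and 9.37 units with 4-OHT, against 6.75 and 6.70 with vehicle. Inhibitors of the cell cycle and of PI3K belonged to the same list. CDKN1B (p27) rose by 1.07 ± 0.0712, with 9.65 and 9.63 units against 8.51 and 8.64 with vehicle, and PIK3IP1, a membrane inhibitor of PI3K, rose by 1.29 ± 0.134. CDKN1A (p21) rose by 0.40, GADD45A by 0.95 and IL7R, the interleukin 7 receptor chain, by 0.87.

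The other 13 members did not pass. Among them were PDK4 (0.02), KLF2 (0.07), SOD2 (0.08), the insulin receptor INSR (0.04) and S1PR1 (-0.26), genes for metabolic switching, lymphocyte homing and redox defence. S1PR1, the sphingosine receptor for exit from lymphoid organs, narrowly missed the threshold (adjusted p = 0.0505), and 1 member of the list passed as lower under several other settings, among them leaving out the first L428 vehicle array or any of the UHO-1 and SUP-HD1 vehicle arrays. Among related forkhead genes, FOXP1, which acts in mature B cells, rose by 2.07 ± 0.0862, with 8.47 and 8.53 units against 6.30 and 6.56 with vehicle, and FOXO3 did not pass (-0.10 ± 0.146).

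**Figure D2:**
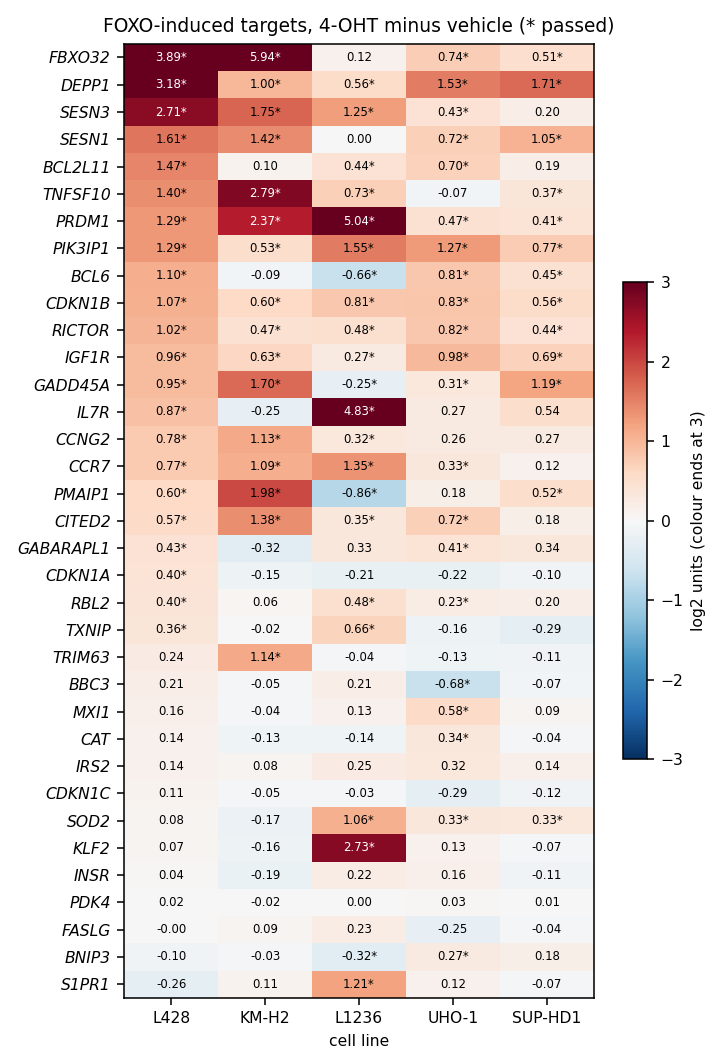
Difference between 4-OHT and vehicle (log2 units, colour and number) for the 35 tested FOXO-induced targets in L428 and in the other 4 lines, with an asterisk where the limma adjusted p was below 0.05. In L428, 22 members passed, all higher, from FBXO32 at 3.89 to TXNIP at 0.36.

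Transcripts for DNA replication and mitosis were lower across their lists. Of 29 S phase and replication genes, 25 fell and 0 rose, and of 24 mitosis genes, 19 fell and 0 rose. Their medians were -0.634 and -0.49 log2 units. Over all genes, 17.5% fell and 12% rose. MCM10, which helps to load replication proteins onto origins, had 9.89 and 9.83 units with 4-OHT, against 10.86 and 10.89 with vehicle (-1.02 ± 0.0629, adjusted p = 2.76e-11). POLE2, a subunit of DNA polymerase epsilon, had 6.53 and 6.39 units, against 7.44 and 7.61 with vehicle. The helicase subunits MCM2, MCM3 and MCM4 fell by 0.76, 0.70 and 0.68, and thymidylate synthase TYMS fell by 0.69. CCNE2 (0.18), MCM6 (0.07), E2F1 (-0.07) and POLA1 (-0.10) did not pass.

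Among mitosis genes, KIF20A, a kinesin of cytokinesis, had 8.04 and 7.91 units with 4-OHT, against 8.95 and 8.84 with vehicle (-0.91 ± 0.0816). Cyclin A2 (CCNA2) fell by 0.71, the transcription factor FOXM1, which drives G2 and M genes, by 0.71, the kinase AURKB by 0.68 and the anaphase activator CDC20 by 0.58. CDC25C (-0.30), CDK1 (-0.24), CENPE (-0.05), CCNB2 (0.01) and NUSAP1 (0.12) did not pass. In every named gene of both lists that passed, the 4-OHT arrays lay below the vehicle arrays. That held for 2768 of all 2772 genes that fell, so it is not particular to these lists.

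The G1 list was mixed. Of 19 members, 4 rose and 6 fell, while 12% of all genes rose and 17.5% fell. The 4 that rose restrain the cycle: CDKN1B, the cyclin CCNG2 (0.78), CDKN1A and the pocket protein RBL2 (0.40). The 6 that fell included cyclin D2 (CCND2), with 10.56 and 10.58 units against 11.39 and 11.30 with vehicle, CCNE1 (-0.64), CDK4 (-0.62) and CDK2 (-0.48). RB1 (-0.21) and CDK6 (0.07) did not pass.

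Genes for ribosome production and for nucleotide synthesis were lower as well. MYC had 9.47 units in both 4-OHT arrays, against 10.07 and 10.11 with vehicle, a difference of -0.61 ± 0.0765 (adjusted p = 1.32e-06). The list of MYC and ribosome biogenesis members held 27 tested genes, of which 20 fell and 4 rose (median -0.45). The share that rose is near the 12% of all genes, of which 17.5% fell. ODC1, the first enzyme of polyamine synthesis, had 10.52 and 10.64 units, against 11.54 and 11.65 with vehicle. TFAP4 (-0.93), NOLC1 (-0.75) and the rRNA methyltransferase FBL (-0.45) fell too. The 4 that rose were MXD1 (0.75) and MXD4 (0.43), which compete with MYC for its partner MAX, MAX itself (0.26) and the snoRNP protein NOP58 (0.42). Without the first 4-OHT array, 2 members of this list rose, and MAX did not pass.

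Of 21 genes of nucleotide and one-carbon synthesis, 20 fell and 0 rose (median -0.461). SHMT1, which moves one-carbon units from serine to folate, had 7.92 and 7.89 units with 4-OHT, against 8.91 and 8.82 with vehicle. CAD, which starts pyrimidine synthesis, fell by 0.89, IMPDH2 of guanine nucleotide synthesis by 0.69, PAICS of purine synthesis by 0.65 and PRPS2 by 0.59. IMPDH1 (-0.19) did not pass. Among 20 glycolysis genes, 11 fell and 3 rose (median -0.255). The share of these that rose is near the 12% of all genes, of which 17.5% fell. HK2 (-0.82), PKM (-0.59) and LDHA (-0.50) lay below vehicle, and PDK1, which keeps pyruvate out of the mitochondrial cycle, above it (0.67). Among 15 cholesterol synthesis genes, 8 fell (median -0.204), or 5 without the second vehicle array. CYP51A1 (-0.56) and DHCR7 (-0.46) fell, while INSIG1, a brake on that pathway, rose by 0.32.

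Some genes taken as stable in many assays moved as well. Of 11 housekeeping genes, 5 fell and 1 rose, while 17.5% of all genes fell and 12% rose. The share of them that rose is near the latter. The transferrin receptor TFRC fell by 0.75 and B2M rose by 0.43, whereas ACTB (-0.03), HPRT1 (-0.07) and SDHA (0.03) did not pass. RMA equalises the distribution of values between arrays, so a change in total RNA per cell could not be seen.

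**Figure D3:**
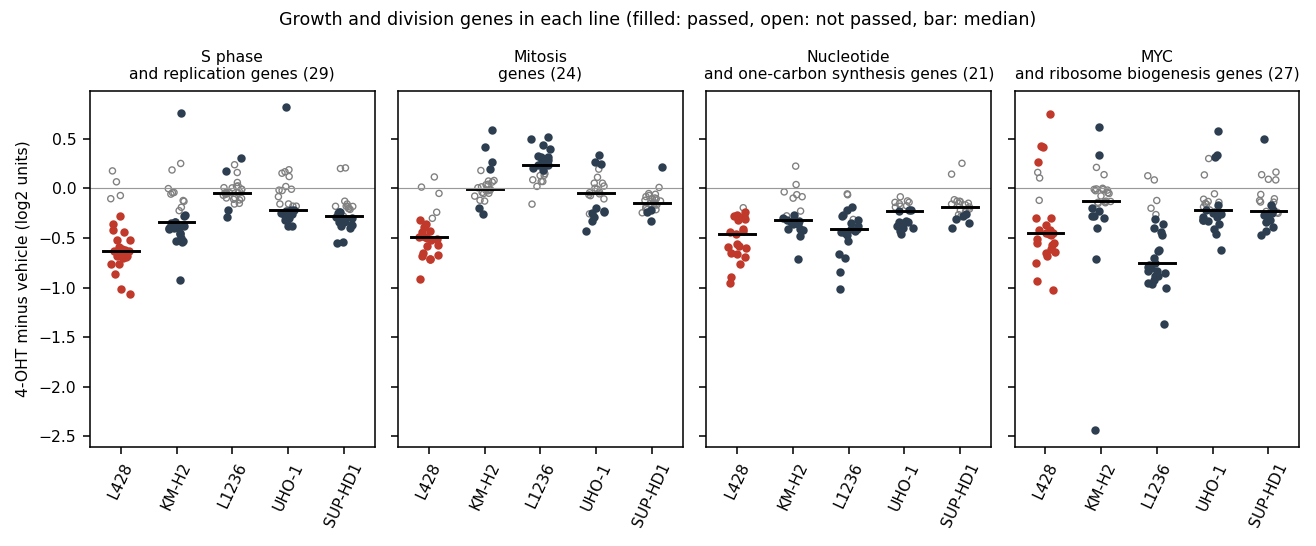
Difference between 4-OHT and vehicle (log2 units) for each tested member of 4 gene lists in L428 and the other lines, with filled points for a limma adjusted p below 0.05, open points otherwise and a bar at the median. In L428 the medians were -0.634, -0.49, -0.461 and -0.45, from left to right.

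Of 17 B cell identity genes, 7 fell and 2 rose, and the share that rose is near the 12% of all genes. Their median difference was -0.133, or -0.212 without the second 4-OHT array. IKZF1, the lymphoid factor Ikaros, had 8.05 and 8.16 units with 4-OHT, against 9.11 and 9.17 with vehicle (-1.03 ± 0.0694). IKZF3 (-0.66), BCL11A (-0.79) and CD24 (-0.79) fell as well. BACH2, a repressor that delays plasma cell differentiation, had 6.28 and 5.50 units with 4-OHT, against 4.32 and 4.72 with vehicle, a rise of 1.37 ± 0.188 between low signals. PAX5, which maintains B cell identity, had 6.03 units in both 4-OHT arrays, against 6.17 and 6.16 with vehicle, and did not pass (-0.13 ± 0.0965, adjusted p = 0.359). TCF3 (0.17) was the other that rose, and it did not pass without the second vehicle array or without either 4-OHT array.

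Of 11 germinal centre genes, 4 rose and 2 fell, and the share that fell is near the 17.5% of all genes, of which 12% rose. Beside GCSAM and FOXP1, BCL6, the master repressor of the germinal centre, had 8.40 and 8.36 units with 4-OHT, against 7.31 and 7.25 with vehicle (1.10 ± 0.0713, adjusted p = 6.22e-11), and RGS13 rose by 0.49. The factor MEF2C had 6.34 and 6.45 units, against 7.35 and 7.53 with vehicle, and MYBL1 fell by 0.46. S1PR2 (-0.01), LMO2 (0.09) and CD40 (0.02) did not pass.

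PRDM1 (BLIMP1), the repressor that starts plasma cell differentiation and opposes BCL6, rose too. It had 10.19 and 10.17 units with 4-OHT, against 8.87 and 8.90 with vehicle, a rise of 1.29 ± 0.118 (2.45-fold, adjusted p = 1.39e-08). Of 14 plasma cell genes, against 12% higher and 17.5% lower among all genes, 6 rose and 2 fell. Their median difference was 0.237, or 0.149 without the second vehicle array, 0.13 without the second 4-OHT array and 0.0278 with no floor on low signals. The ectoenzyme CD38 had 5.82 and 6.39 units with 4-OHT, against 4.61 and 4.95 with vehicle. The secretory factor XBP1 rose by 0.35, HERPUD1 by 0.44 and ELL2 by 0.49. FKBP11, which helps proteins fold in secretory cells, fell by 0.83. IRF4 had 11.04 and 11.23 units, against 11.42 and 11.47 with vehicle (-0.31 ± 0.0883), and it did not pass without the first 4-OHT array or without the second vehicle array, which left 1 member lower. SDC1 (-0.09) and CD27 (-0.01) did not pass, and TNFRSF17, JCHAIN and SLAMF7 stayed below the floor for testing. XBP1 and HERPUD1 also belong to the unfolded protein response list, of which 6 of 19 rose and 4 fell. The share of that list that fell is near the 17.5% of all genes, of which 12% rose. In it the co-chaperone DNAJC3 lay at 0.96, while the chaperones HSPA5 (-0.02) and HSP90B1 (-0.12) did not pass.

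Of 17 genes that signal from the B cell receptor, 7 rose and 3 fell, or 4 rose without the second vehicle array. The share that fell is near the 17.5% of all genes, of which 12% rose. The median difference of the 17 was 0.0844, or between 0.042 (without the second 4-OHT array) and 0.147 (without the first), and 0.0542 without the first vehicle array. The kinase BLK had 8.65 and 8.52 units with 4-OHT, against 7.33 and 7.53 with vehicle (1.15 ± 0.094). The scaffold protease MALT1 rose by 0.80 and VAV2 by 0.64, while the adaptor DAPP1 fell by 0.44. SYK (-0.09), LYN (0.06), BLNK (0.08) and PLCG2 (0.09) did not pass. Of 9 MHC class II genes, 5 fell and 0 rose (median -0.35), or 3 fell without the second vehicle array. HLA-DMB had 7.76 and 7.66 units with 4-OHT, against 8.12 and 8.29 with vehicle, and HLA-DPB1 fell by 0.43.

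Cytokine signalling genes moved in both directions, with kinases and receptor chains among those that rose and SOCS inhibitors among those that fell. Of 21 JAK-STAT genes, 14 rose and 4 fell (median 0.30), and the share that fell is near the 17.5% of all genes, of which 12% rose. Without the second vehicle array 9 rose, and without the first 4-OHT array 2 fell. JAK1 had 9.91 and 9.89 units with 4-OHT, against 9.05 and 8.99 with vehicle (0.88 ± 0.0513). The receptor chain IL13RA1, which binds interleukin 13, had 11.25 and 11.44 units, against 10.36 and 10.43 with vehicle, so it rose where its ligand IL13 fell. The kinase PIM1 rose by 0.77, the phosphatase PTPN1 by 0.73 and IL4R by 0.53. The feedback inhibitors SOCS1 and SOCS3 fell by 0.57 and 0.58, whereas SOCS2 rose by 0.48. STAT6 (0.06) and STAT5A (-0.03) did not pass.

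NF-kB target genes were mixed, and the share of them that fell is near the 17.5% of all genes, of which 12% rose. Of 25, 6 rose and 4 fell, or 3 rose without the second 4-OHT array. The chemokine CXCL10 had 9.75 and 9.85 units with 4-OHT, against 8.14 and 8.37 with vehicle, and the inhibitor TNFAIP3 (A20) and CD83 rose by 0.62 and 0.72. LTA and TNF fell by 0.78 and 0.75. NFKBIA (-0.12), NFKB1 (-0.09) and RELA (0.13) did not pass. Among the 25 Hodgkin cell markers, 5 rose and 8 fell, or 5 fell without the first 4-OHT array. With IL13 and TNFRSF8, the actin bundler FSCN1 had 10.54 and 10.81 units, against 11.67 and 11.84 with vehicle. LGALS1, an immunosuppressive galectin, had 11.58 and 11.46 units, against 10.71 in both vehicle arrays, and the checkpoint ligand PDCD1LG2 rose by 0.65. CCL22 (-0.02), JUNB (-0.06) and GATA3 (-0.04) did not pass.

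In the BCL2 family list, which holds genes that promote death and genes that protect from it, 5 of 17 rose and 1 fell. Over all genes, 12% rose and 17.5% fell. BCL2L11, the pro-apoptotic protein BIM, had 8.49 and 8.34 units with 4-OHT, against 6.85 and 7.04 with vehicle (1.47 ± 0.1, 2.78-fold, adjusted p = 1.26e-10). MCL1, which protects from apoptosis, had 11.31 and 11.24 units, against 10.36 and 10.28 with vehicle, and PMAIP1 (NOXA), its antagonist, rose by 0.60. BCL2L1 (BCL-XL) fell by 0.36. Leaving out either vehicle array or the second 4-OHT array left 3 that rose, and BMF (0.35) did not pass in any of these fits. Leaving out the first 4-OHT array left 3 that fell, and leaving out the second vehicle array, either KM-H2 vehicle array or the second L1236 4-OHT array left 2. BAX (0.09) and BBC3 (0.21) did not pass.

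Of 25 TNF ligand and receptor genes, 3 rose and 7 fell, and the 3 were TNFSF4, TNFSF10 and FAS. The share that rose is near the 12% of all genes, of which 17.5% fell. TNFSF4 (OX40 ligand) had 6.82 and 6.92 units with 4-OHT, against 4.36 and 4.80 with vehicle (2.29 ± 0.198). The death ligand TNFSF10 (TRAIL) rose by 1.40 and the death receptor FAS by 0.66, whereas TNFRSF10A, a TRAIL receptor, fell by 0.67.

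Genes of migration changed by large steps in few members, and the share that fell is near the 17.5% of all genes, of which 12% rose. Of 20, 6 rose and 3 fell, or 5 fell without the first vehicle array. RGS1, which damps chemokine receptors, had 10.14 and 10.08 units with 4-OHT, against 7.96 and 7.95 with vehicle (2.16 ± 0.104). RGS2 rose by 1.44, the chemokine receptor CXCR4 by 1.00 (10.90 and 10.82 units, against 9.81 and 9.90 with vehicle) and CCR7 by 0.77. CXCR3 fell by 0.79 with ITGAL. CXCR5 (0.16) and S1PR4 (0.02) did not pass.

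Among 21 genes of insulin and PI3K signalling, 8 rose and 6 fell, or 5 rose without the second vehicle array or without the first 4-OHT array. Over all genes, 12% rose and 17.5% fell. IGF1R, the receptor of insulin-like growth factors, had 9.01 and 8.97 units with 4-OHT, against 7.95 and 8.11 with vehicle. RICTOR of mTORC2 had 8.45 and 8.46, against 7.51 and 7.37. MTOR (-0.39), the leukocyte PI3K subunit PIK3CD (-0.57) and PIK3R3 (-0.41) fell, and AKT1 (0.06) did not pass. Of 20 autophagy genes, 10 rose and 1 fell (median 0.175). That count was 6 after median centring and 6 without any 1 of the 4 L428 arrays. BNIP3L, the mitophagy receptor NIX, had 10.17 and 10.01 units, against 8.99 and 8.89 with vehicle (1.16 ± 0.0693), MAP1LC3B rose by 0.64 and PIK3C3 by 0.48.

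Of 21 interferon-induced genes, 1 rose and 4 fell, or 2 fell without the second array of either arm. IFIT2 had 8.07 and 8.30 units with 4-OHT, against 6.36 and 6.50 with vehicle, while IFI44L had 3.98 in both 4-OHT arrays, below the signals of most genes, against 5.56 and 5.32. ISG15 (0.02) and OAS2 (0.06) did not pass. The share of this list that fell is near the 17.5% of all genes, of which 12% rose. Of 10 oestrogen-induced genes, 3 rose and 0 fell, namely CTSD (0.19), GREB1 (0.34) and XBP1, and without the second vehicle array XBP1 alone did. TFF1 (0.05) did not pass. Of 16 T cell markers, 0 passed in either direction. Of 10 myeloid markers, AIF1 (0.82) and CD14 (0.41) rose at low signals, and CD14 did not pass without the first 4-OHT array or the second vehicle array. Of 12 stromal markers, PDGFRA (0.70), ACTA2 (0.62), FN1 (0.59) and VIM (0.23) rose, and FN1 did not pass without the second 4-OHT array.

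**Figure D4:**
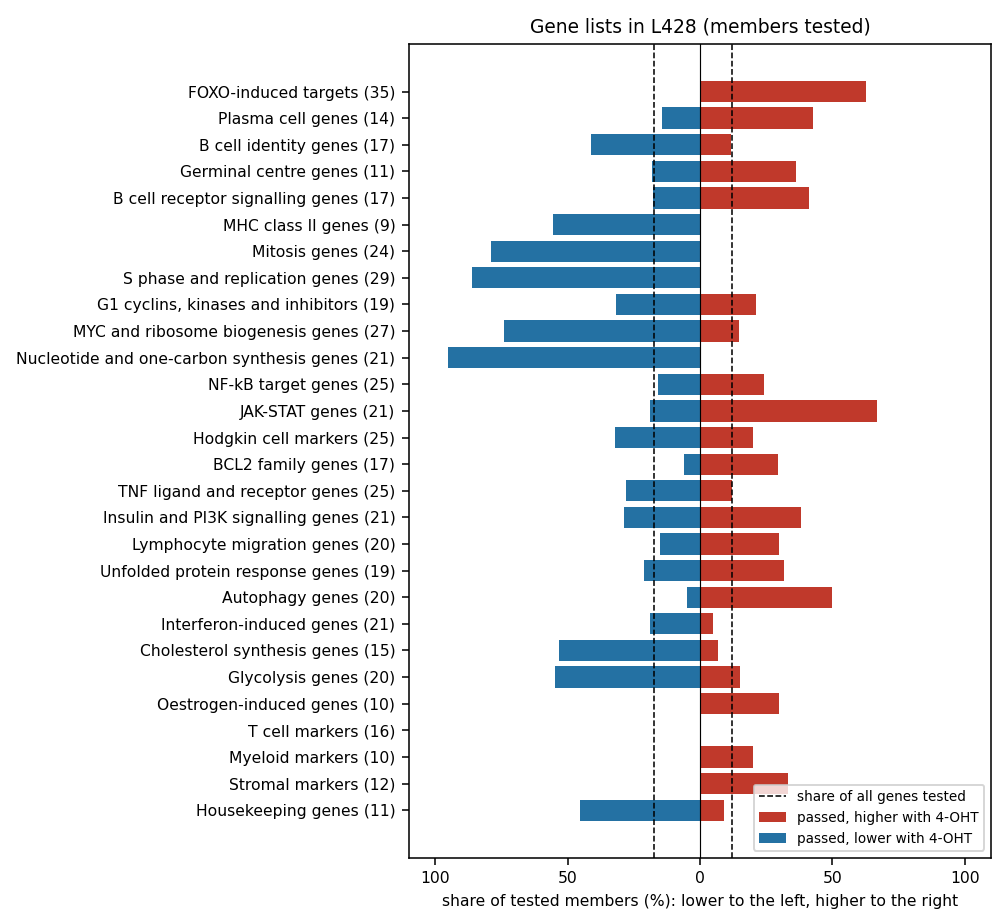
Share (%) of the tested members of each gene list that rose (right, red) or fell (left, blue) in L428 at a limma adjusted p below 0.05, with the number tested in brackets and dashed lines at the shares of all genes, 12% higher and 17.5% lower. Among nucleotide synthesis, S phase and mitosis genes the blue bars stand for 20 of 21, 25 of 29 and 19 of 24.

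How far L428 shared its response was first counted gene by gene, as a description. At the same threshold, 1592 genes were higher (10%) and 1943 lower (12.3%) in KM-H2, 1307 higher (8.25%) and 2354 lower (14.9%) in L1236, 2118 higher (13.4%) and 1760 lower (11.1%) in UHO-1, and 583 higher (3.68%) and 373 lower (2.35%) in SUP-HD1. Of the 1901 genes that rose in L428, 974 also rose in UHO-1 (51.2% of the L428 genes and 46.0% of the UHO-1 genes) and 601 in KM-H2 (31.6% and 37.8%). Of the 2772 that fell in L428, 1076 also fell in L1236 (38.8% and 45.7%) and 799 in KM-H2 (28.8% and 41.1%). SUP-HD1 passed in few genes, of which 60.0% of the rises and 68.4% of the falls were shared with L428. None of the other lines passed the same way for 580 of the rises and 1035 of the falls, and all 4 did for 53 and 38.

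The difference in response itself was tested as the L428 difference minus the mean of the other 4 lines' differences. It lay above 0 in 1290 genes (8.14%) and below 0 in 1962 (12.4%), 3252 in all (20.5%). Without the second 4-OHT array of L428, 1286 genes lay below. Of the genes that rose in L428, 1036 lay above the other lines and 21 below. Of those that fell, 1602 lay below and 4 above. The L428 difference enters both tests, so this direction was largely set in advance. Against KM-H2 alone, whose arrays appear from their values to share the normalisation run of L428, 1614 genes lay above (10.2%) and 2020 below (12.7%), 3634 in all (22.9%).

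ENPP2 had the largest positive difference, at 3.65 ± 0.15 log2 units (adjusted p = 3.4e-13). It changed by 4.36 in L428, against 1.74 in UHO-1, 0.61 in SUP-HD1, 0.35 in KM-H2 and 0.13 in L1236. PCYT1B, an enzyme of phosphatidylcholine synthesis, had 8.50 and 8.53 units with 4-OHT in L428, against 5.94 and 6.17 with vehicle, while its difference in the other lines lay between -0.78 in L1236 and 0.09 in SUP-HD1 (2.68 ± 0.15 above their mean). FRMPD2, a scaffold protein, rose by 2.56 in L428 and lay between -0.12 and 0.24 elsewhere. The thrombin receptor F2R (2.50 above the mean of the other lines) and MINAR2 (2.55) fell in at least 1 other line, F2R by 0.82 in L1236 and MINAR2 by 1.21 in KM-H2. PRXL2A (2.64), KIF13A (2.64) and GCSAM (2.52) were the other 3 largest.

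On the negative side stood EHF (-2.00 ± 0.24), ENTREP1 (-1.93), FRG2C (-1.62), PHACTR3 (-1.44), IL13 (-1.41), the lipid acyltransferase GPAT3 (-1.40), the thyroid hormone receptor THRB (-1.37) and H3C12 (-1.31). EHF changed by between -0.35 and 0.11 in the other lines and passed in none of them. THRB had 5.73 and 5.72 units with 4-OHT in L428, against 6.90 and 7.05 with vehicle, and its difference elsewhere lay between -0.06 and 0.32.

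For some genes the answer depended on the line set against L428. FBXO32 rose by 3.89 in L428, by 5.94 in KM-H2 and by at most 0.74 in the other 3. It thus lay 2.07 above the mean of the other 4 lines, KM-H2 included, but at -2.05 against KM-H2 alone. CBLB lay 0.67 above the mean and at -0.50 against KM-H2. PRDM1 lay at -0.78 ± 0.13 against the mean (adjusted p = 0.000162), and at 0.21 (adjusted p = 0.295) without L1236, in which it rose by 5.04. MYC fell less in L428 than in the others on average (0.50 ± 0.085), which rested on KM-H2 (-2.44). Against the other 3 the value was 0.06 and did not pass.

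**Figure D5:**
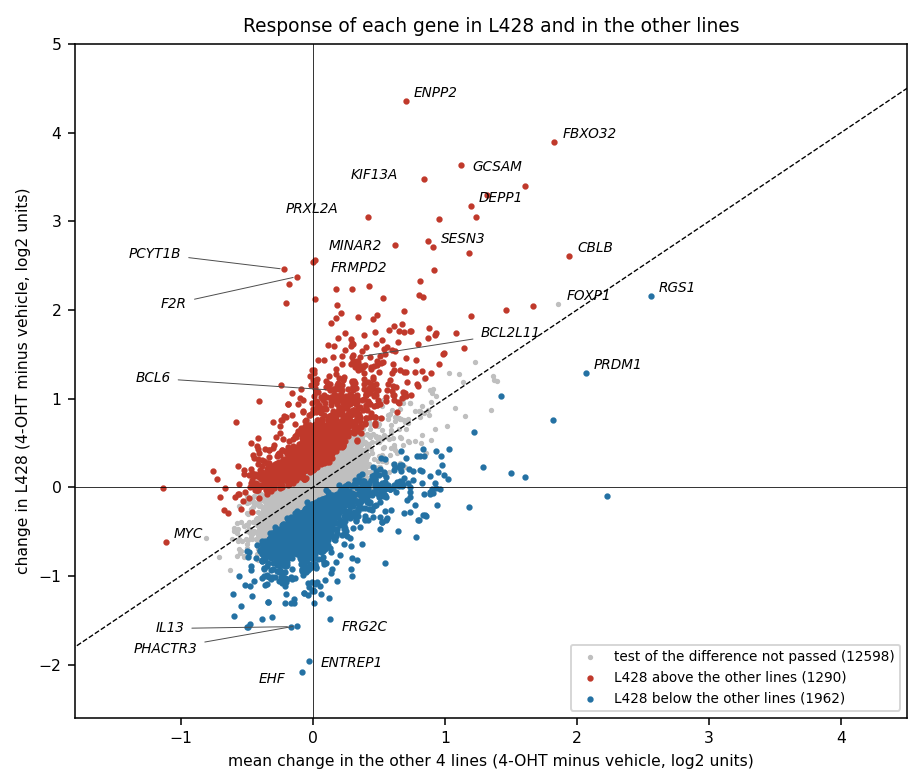
Change in L428 against the mean change in the other 4 lines (4-OHT minus vehicle, log2 units) for the 15850 tested genes, coloured red where L428 lay above (1290) and blue where it lay below (1962) at a limma adjusted p below 0.05, with a dashed line of equal change. ENPP2 stands furthest above the line and EHF lowest.

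Mitosis genes changed differently in L428 and in the other lines. Of the 24, 19 lay below the mean of the other lines and 0 above, and 18 lay below KM-H2 and 0 above, with a median difference of -0.482. Their median change was -0.49 in L428, where 19 fell. In the other lines 2 fell and 4 rose in KM-H2, 0 fell and 15 rose in L1236, 7 fell and 3 rose in UHO-1, and 3 fell and 1 rose in SUP-HD1. KIF20A changed by -0.91 in L428, against 0.33 in L1236, 0.04 in KM-H2, -0.07 in UHO-1 and -0.20 in SUP-HD1. Of the 29 S phase genes, 24 lay below the mean of the other lines and 0 above, and against KM-H2 17 lay below and 1 above. S phase falls were not absent elsewhere: 18 fell in KM-H2, 15 in UHO-1, 17 in SUP-HD1 and 2 in L1236. Nucleotide synthesis genes differed from the mean of the other lines in 10 of 21, all below. Falls in this list were common to the lines, and 0 members rose in any of them. L1236 had 18 members that fell, KM-H2 and UHO-1 had 13 each, and SUP-HD1 had 5. The median change of the list was -0.461 in L428, and elsewhere it ran from -0.407 (L1236) to -0.186 (SUP-HD1). Of 9 MHC class II genes, 1 lay above the mean of the other lines and 0 below (median difference 0.0772). Against KM-H2 alone, in which all 9 fell with a median of -1.07, 6 lay above, while UHO-1 had 3 that fell, L1236 had 1 and SUP-HD1 had 0. HLA-DPB1 changed by -0.43 in L428, against -1.59 in KM-H2.

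BCL6 and BCL2L11 also differed. BCL6 rose by 1.10 in L428, against -0.66 in L1236, -0.09 in KM-H2, 0.45 in SUP-HD1 and 0.81 in UHO-1 (0.97 ± 0.08 above the mean, adjusted p = 9.8e-09). BCL2L11 lay 1.12 ± 0.11 above the mean and changed by 0.10 in KM-H2. BLK rose by 1.15 in L428 and fell by 1.14 in KM-H2, and the difference between these lines was 2.29 (adjusted p = 1.6e-11). BNIP3L rose by 1.16 in L428, against -0.45 in KM-H2. FOXP1, in contrast, rose in all 5 lines, by 2.07 in L428 and by between 0.98 and 2.39 in the others, and the test of its difference was not passed (0.21 ± 0.096, adjusted p = 0.13).

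Of the 4673 genes that passed in L428, 9 passed in the opposite direction in at least 3 other lines. GALNT2, an enzyme that starts O-glycosylation, had 10.19 and 10.11 units with 4-OHT, against 9.04 and 9.15 with vehicle, while it fell in KM-H2, L1236 and SUP-HD1 by 0.37, 0.24 and 0.25. AMPD3, of adenine nucleotide breakdown, rose by 0.80, ALOX5AP, which serves leukotriene synthesis, by 0.50 and the tetraspanin CD82 by 0.39. SPTBN1, a membrane skeleton protein, and PLXNC1, a semaphorin receptor, each fell by 0.49 in L428 and rose in 3 other lines. PLXNC1 in L428 did not pass without the first 4-OHT array or the second vehicle array.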

How the data were processed

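Total RNA was labelled as whole transcript sense targets and read on Affymetrix Human Gene 1.0 ST arrays, per the labels' protocols. What the authors deposited are log2 values per probe set from RMA, which corrects background, normalises between arrays and summarises probes, per the labels and the design text. The version of RMA and the genome build of the array are not given in the sources used here. Sorted values showed 2 separate runs, 1 of the 8 L428 and KM-H2 arrays and 1 of the other 12, so each line was compared only with its own vehicle arrays.

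Arrays were grouped by their titles. Of 33268 probe sets, 19457 had 1 gene symbol, 1751 several and 12060 none in the platform annotation. For each of 18416 genes the probe set with the highest mean was used, and 15850 genes with at least 5 log2 units in at least 2 of the 20 arrays were tested. limma 3.58.1 in R 4.3.3 fitted 10 group means to all 20 arrays (eBayes with an intensity trend). The 3 contrasts were 4-OHT minus vehicle in L428, that difference minus the mean of the other 4 lines' differences, and minus that of KM-H2. P-values are limma's, adjusted by Benjamini-Hochberg over all genes tested, errors are its standard errors, and a gene passed below 0.05. The fit was tested on simulated data.

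Named genes were the 15 largest rises and falls in L428, the 8 largest differences from the other lines each way (for both, arms that do not overlap and a mean of at least 6 in the higher one), up to 6 genes opposite to at least 3 other lines, genes always named, and per list up to 5 members with the smallest p and up to 3 against its median. Other values given for list members were chosen after they were seen. The members, the gene lists and these rules were chosen with earlier results of these data known. Lists are described by counts and medians, without a test. Alternatives changed the floor, scaling, trend, probe set rule, block, arrays and lines.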

Additional observations from a re-analysis of the deposited data

Results flagged for a closer look

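Genes stood out where the response of L428 differed from the mean response of the other 4 lines by the limma test of that difference (values in log2 units). Among the genes named for size, ENPP2 lay 3.65 above, PCYT1B 2.68, PRXL2A 2.64, KIF13A 2.64, MINAR2 2.55, FRMPD2 2.54, GCSAM 2.52 and F2R 2.5. EHF lay at -2, ENTREP1 at -1.93, FRG2C at -1.62, PHACTR3 at -1.44, IL13 at -1.41, GPAT3 at -1.4, THRB at -1.37 and H3C12 at -1.31.

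Among regulators and FOXO targets, FBXO32 lay 2.07 above, SESN3 1.8, BCL2L11 1.12, BCL6 0.969, CD38 0.664, MYC 0.501, CDKN1B 0.368, IGF1R 0.315 and XBP1 0.314. TNFRSF8 lay at -0.85, PRDM1 at -0.776 and IRF4 at -0.323. Of the genes that moved opposite to at least 3 lines, GALNT2 lay 1.21 above, AMPD3 0.997, ALOX5AP 0.974 and CD82 0.798, while PLXNC1 lay at -1.13 and SPTBN1 at -0.74.

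Probe sets outside the gene comparisons also changed in L428. Of 7057 tested probe sets with no gene in the annotation, 963 passed, 456 higher and 507 lower, and of 1526 with several gene symbols 421 passed, 255 higher and 166 lower. The largest rises were of the unnamed probe sets 7896703 (2.79 log2 units) and 7896687 (2.64).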

How the results depend on the processing

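Of the 6 counts of genes, 1 moved by more than 1.5 times in the alternatives run: 1286 genes lay below the other lines without the second 4-OHT array of L428, against 1962. Leaving out 1 of the 20 arrays at a time gave between 1486 and 1983 genes higher in L428, 2150 to 2843 lower, 930 to 1369 above and 1286 to 2106 below the other lines, and 1347 to 1685 above and 1523 to 2089 below KM-H2. Median centring gave 1468 higher and 2876 lower. Over the alternatives, 76.3% to 99.8% of the 4673 L428 calls were kept. Other comparators turned the sign of FBXO32 (-2.049) and CBLB (-0.4991) against KM-H2 alone and of PRDM1 without L1236 (0.2126). Against KM-H2 alone, ABCG2, ARRDC3, TNFRSF8 and XBP1 did not pass, as CBLB did not without SUP-HD1. IGF1R, IRF4 and CD38 lost their difference from the other lines in some fits, among them some without 1 L428 array. Leaving out single arrays of the other lines, and counting list members against the other lines, were added after the data were seen. In L428 itself no named gene that passed changed direction in the alternatives run. FOXO4 (0.28, adjusted p = 0.0494) did not pass under many alternatives (up to 0.355). The 2 arrays of an arm share only a number (correlation of same-numbered deviations between arms 0.0372 in L428, and -0.557 to 0.294 over the 5 lines). With that number as a replicate block, 1841 genes were higher and 2683 lower in L428, 1179 above and 1795 below the other lines, and 1531 above and 1883 below KM-H2, and of the named genes called in L428, ATG16L1 and FOXO4 did not pass. The mean of the other lines without KM-H2 is the mean of the remaining 3 and was run once. Signals under about 5 log2 units are near background, and differences there understate changes.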
